A study of Mus musculus with 12 samples.

Results

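The genes described here are 10 immediate early genes of the mouse, Fos, Fosb, Jun, Junb, Egr1, Egr2, Egr3, Atf3, Ier2 and Nr4a1. They were taken by name: each is the row of a deposited count table whose Ensembl identifier carries that symbol in GENCODE M21, and all 10 were found among the 56262 identifiers of the lung table and the 54532 of the sorted-cell table. The rule uses names and no measured value, though the genes were proposed with earlier results of these data in view.

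Poly-A RNA was sequenced in 12 libraries from C57BL/6 mice, in 4 groups of 3. Lung tumours and adjacent normal lung were taken at 18 months from the same 3 mice, numbered 102, 217 and 224, all of which lacked Med23, a Mediator subunit, in their T cells. Alveolar type 2 (AT2) cells, the surfactant-making cells of the alveolus, were sorted by FACS from mice of 6 months, 3 of them wild type (176, 177 and 190) and 3 with the same T-cell knockout (175, 179 and 191). The study set out to describe the spontaneous tumours and the state of AT2 cells before tumours form. The labels name no Cre line or promoter, and no wild-type lung tissue was analysed here, so tumour and adjacent tissue differ in tissue and not in genotype.

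Immediate early genes are switched on within minutes of a growth factor, cytokine or stress signal, by transcription factors that are already in the cell and need no new protein. MAP kinases phosphorylate the ETS factors that sit with SRF on CArG boxes and the CREB and ATF factors that sit on cyclic AMP response elements (CRE), and the transcripts then decay quickly through AU-rich elements. Most of the products are themselves transcription factors: FOS and JUN proteins pair into AP-1, EGR proteins are zinc fingers that bind GC-rich sites, and NR4A1 is an orphan nuclear receptor. In lung, as in other tissue, enzymatic dispersal and sorting of cells are known to induce them.

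The RefSeq promoter table (GRCm38.p6) held a window, from 250 bases before to 50 bases after the transcription start, for 7 of the 10 genes: Fos, Fosb, Jun, Junb, Egr2, Atf3 and Nr4a1. The letters of the CRE core, TGACG, stood in 5 of these 7 windows (Fos, Fosb, Junb, Atf3 and Nr4a1), against 20.8% of all 32851 windows. The stretches below are those of Fos, Fosb, Junb and Nr4a1, which carry that core. The window of Jun did not hold it, and that of Atf3, which did, is not shown. Each runs 5′ to 3′ on the gene's strand and ends at the base before the RefSeq start. Capitals mark TGACG, its reverse complement CGTCA, and the TATA box letters TATAAA.

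Fos, chr12:85473756-85473889, plus strand: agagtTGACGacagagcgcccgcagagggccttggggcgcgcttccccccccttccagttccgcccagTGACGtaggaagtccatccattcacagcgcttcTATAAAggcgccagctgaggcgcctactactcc
Fosb, chr7:19310046-19310110, minus strand: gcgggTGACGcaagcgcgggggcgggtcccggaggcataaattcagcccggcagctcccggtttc
Junb, chr8:84978749-84978859, minus strand: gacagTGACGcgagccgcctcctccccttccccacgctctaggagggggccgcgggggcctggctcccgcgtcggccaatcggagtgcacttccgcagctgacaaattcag
Nr4a1, chr15:101266608-101266845, plus strand: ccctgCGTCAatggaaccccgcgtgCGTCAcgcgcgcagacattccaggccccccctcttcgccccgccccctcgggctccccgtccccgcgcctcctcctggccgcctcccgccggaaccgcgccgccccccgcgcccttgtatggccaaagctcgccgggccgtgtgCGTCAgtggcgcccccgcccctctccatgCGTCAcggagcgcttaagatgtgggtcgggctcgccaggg

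In the Fos stretch the TATAAA letters began 33 bases before the start and the TGACG copies 129 and 66 bases before it. The Nr4a1 stretch held the core 4 times, each on the opposite strand. TATAAA stood in 2 of the 7 windows (Fos and Junb), against 13.6% of all windows. In Junb it began at the first base of the RefSeq transcript, whose start lies 30 bases before the GENCODE start of the gene. The GC box GGGCGG stood in 6 windows (35.7% of all) and the ETS core GGAA in 7 (96% of all). The complete CRE TGACGTCA (1.79% of all), the AP-1 site TGANTCA (7.81%), the EGR site GCGTGGGCG (0.612%) and the CArG box (1.63%) stood in none of the 7. All motifs were searched on both strands, and every TGACGTCA match also counts as a TGACG match. For Nr4a1 and Atf3 the RefSeq start lies 12577 and 34706 bases inside the GENCODE gene, so their windows belong to another start of the gene. Bases outside the windows were not searched for any gene, and Egr1, Egr3 and Ier2 had no window. A motif found in none of the windows, such as the CArG box, may therefore still stand elsewhere near these genes.

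Facts of the libraries that bear on these genes come first. The lung libraries held 65163100 to 77951014 counts each and the AT2 libraries 15943084 to 18913242, and levels are given in CPM, which scales every library to the same total. Both libraries of mouse 217 and the wild-type AT2 libraries 176 and 177 stood apart by a negative trend of expression with transcript length (Spearman rho across genes of -0.36 to -0.17, against 0.12 to 0.35 in the other 8). Med23 read 14.8 to 37.3 CPM in lung and 31.7 to 48.4 CPM in AT2 libraries, which checks no label because the deletion is in T cells. The AT2 marker list was high in the sorted cells, with a summed level of 173890 to 213670 CPM. No AT2 marker was at 0 in any group. In the sorted libraries fibroblast markers summed to at most 1.22 CPM, T cell markers to at most 3.03 CPM and endothelial markers to at most 12.6 CPM, with Lum at 0 in both AT2 groups, Pdgfra at 0 in the knockout and Emcn at 0 in the wild type. The AT1 marker Ager, however, averaged 906 to 958 CPM in the sorted AT2 groups. Club markers summed to 529 to 759 CPM in the sorted libraries, ciliated markers to 41.6 to 74.8 CPM and B cell markers to 21.5 to 29.9 CPM.

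The first comparison set lung tumour against the adjacent lung of the same mice. The AP-1 genes Fos and Jun and the EGR gene Egr3 averaged between 2.45-fold and 4.62-fold less RNA in tumours, while Junb averaged 1.62-fold more, but none of the 10 genes passed an adjusted p of 0.05 in the group comparison. By edgeR's quasi-likelihood test, 7.18% of the 19995 genes tested passed as lower in tumours and 2.86% as higher. Separation between the libraries was more common than calls: 5 of the 10 genes (Fos, Jun, Egr1, Egr3 and Nr4a1) had all 3 tumours below all 3 adjacent samples, against 18.9% of all genes tested, and 1 (Junb) had all tumours above, against 11.6%. The median log2 fold change of the 10 genes was -0.96, against 0.04 over all genes tested, and 8 of the 10 were negative. Levels in this comparison are CPM after TMM scaling, given for mice 102, 217 and 224 in that order, and a log2 fold change is tumour over adjacent with its standard error.

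**Figure D1:**
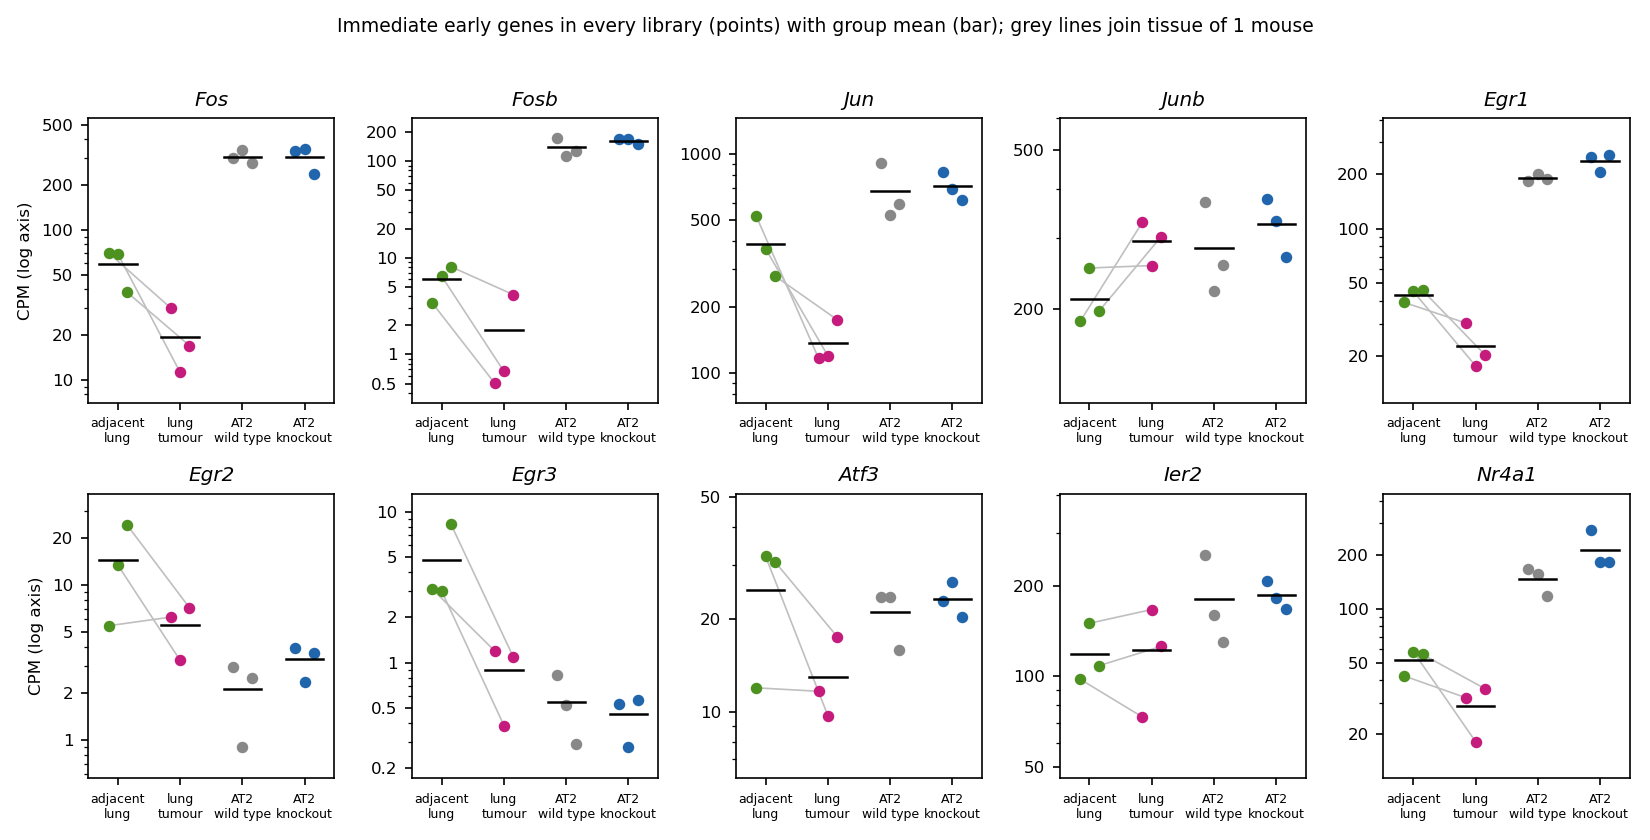
CPM of each immediate early gene (log axis, library totals as the scale) in the 12 libraries; points are libraries, bars are group means, and grey lines join the adjacent and tumour tissue of 1 mouse. Fos, Fosb, Jun, Egr1 and Nr4a1 lie higher in all 6 sorted AT2 libraries than in all 6 lung libraries, and the lines of Junb alone rise from adjacent to tumour tissue in all 3 mice.

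Fos (ENSMUSG00000021250, chromosome 12, 85473890 to 85477273) encodes the founding FOS partner of AP-1. It was measured at 31.3, 13.9 and 16.7 CPM in tumour tissue and at 64.6, 68.0 and 33.1 CPM in adjacent lung. Every tumour lay below every adjacent sample, though tumour 102 and adjacent 224 nearly met. The means were 20.6 ± 9.35 and 55.3 ± 19.2 CPM (SD, n = 3 each), a log2 fold change of -1.42 ± 0.44 and an edgeR adjusted p of 0.0855. With the mouse as a block the log2 fold change was -1.44 with an adjusted p of 0.0488, so that Fos was the 1 gene of the 10 to pass that fit, in which 9.34% of all genes passed as lower. DESeq2 gave Fos an adjusted p of 0.0277.

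Fosb (ENSMUSG00000003545, chromosome 7, 19302696 to 19310051), its close relative, was at 0.53, 0.83 and 4.10 CPM in tumour tissue and at 3.13, 6.34 and 7.0 CPM in adjacent lung. Tumour 224 lay above adjacent 102, so the groups overlapped, but within each mouse the tumour was the lower, by 5.96-, 7.66- and 1.71-fold. The log2 fold change was -1.59 ± 0.83 (95% interval -3.52 to 0.33, edgeR adjusted p = 0.304), and the adjusted p was 0.0749 with the mouse as a block. Without tumour 224 the log2 fold change was -3.02 (adjusted p = 0.061).

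Jun (ENSMUSG00000052684, chromosome 4, 95049034 to 95052222), the main JUN partner, was at 122, 149 and 173 CPM in tumour tissue and at 480, 365 and 240 CPM in adjacent lung. The groups did not overlap, and the gap was widest in mouse 102, at 3.94-fold, and narrowest in mouse 224, at 1.39-fold. The means were 148 ± 25.6 and 362 ± 120 CPM, a log2 fold change of -1.29 ± 0.36 and an edgeR adjusted p of 0.0623. Jun passed when library totals alone set the scale (adjusted p = 0.0412, beside 9.2% of all genes called lower) and in DESeq2 (0.00941). Its antisense neighbour Junos overlaps it by 689 bases and cannot be told apart without strand. Junos was counted at 8.26 CPM in tumour tissue and 3.69 CPM in adjacent lung, far below Jun.

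Junb (ENSMUSG00000052837, chromosome 8, 84974484 to 84978718) encodes a JUN protein with weaker activation than JUN at many AP-1 sites. It went the other way, at 343, 318 and 299 CPM in tumour tissue and at 171, 250 and 171 CPM in adjacent lung. All tumours lay above all adjacent samples, and the tumour was the higher in each of the 3 mice, by 2.0-, 1.3- and 1.75-fold. The means were 320 ± 22.1 and 197 ± 45.4 CPM, a log2 fold change of 0.70 ± 0.30 (95% interval -0.01 to 1.40) and an edgeR adjusted p of 0.213. The gap depended on the scaling. In plain CPM tumour and adjacent tissue of mouse 217 nearly met, at 257 and 253 CPM. With library totals alone the log2 fold change was 0.48 (edgeR adjusted p = 0.454). Junb shares 351 bases with Prdx2, which is read from the other strand and averaged 246 ± 106 CPM in tumour tissue and 139 ± 67.4 CPM in adjacent lung (log2 fold change 0.82 ± 0.47, edgeR adjusted p = 0.351). Prdx2 was thus also the higher in the tumour of each mouse, and its part in the Junb value was not tested.

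Because Jun and Junb lay in opposite directions, their ratio separated tissue within each mouse. Per kilobase of merged exons, Junb over Jun was 3.90, 2.97 and 2.40 in the tumours and 0.50, 0.95 and 0.98 in the adjacent tissue. The ratio stayed between 0.56 and 0.67 in all 6 AT2 libraries. Per kilobase, Jun was the highest of the 10 genes in adjacent lung (122 CPM per kb, with Junb at 92.1) and in both AT2 groups, and Junb was the highest in tumours (129, with Jun at 43.1). These ratios were chosen after the values were seen and carry no test.

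**Figure D2:**
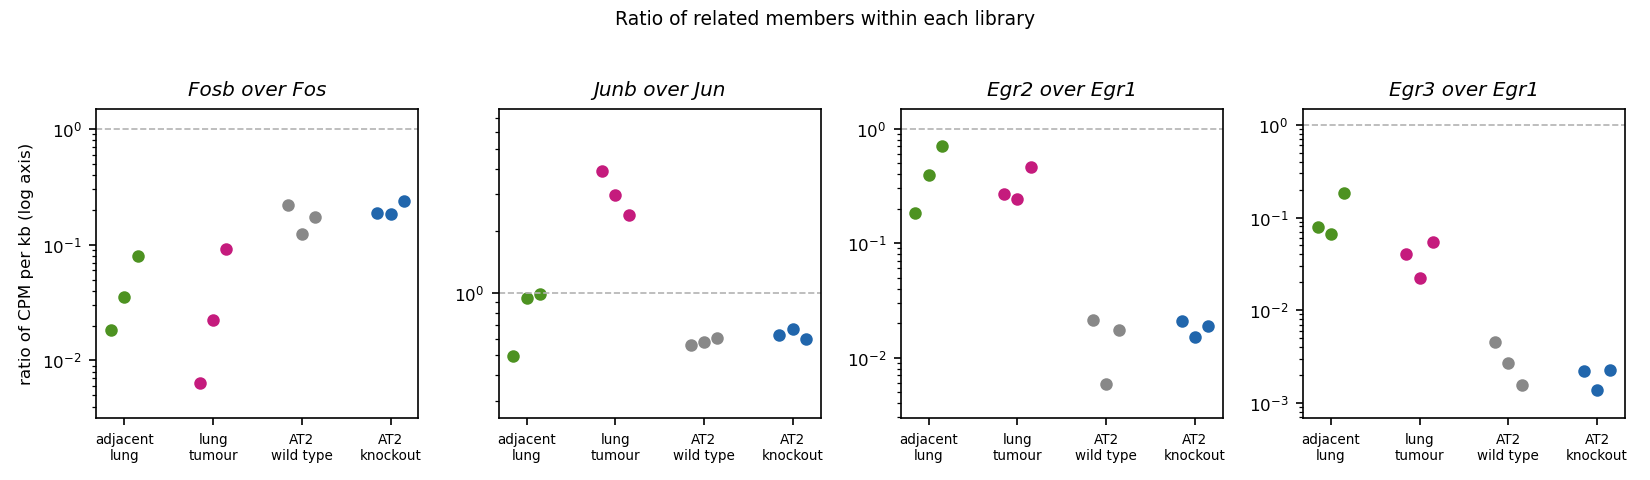
Ratios of CPM per kilobase between related genes within each library (log axis), by group; each point is 1 library. Junb over Jun is above 1 in the 3 tumours and below 1 in every other library, and Egr2 over Egr1 is at most 0.0212 in AT2 cells against at least 0.183 in lung.

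Egr1 (ENSMUSG00000038418, chromosome 18, 34859823 to 34864984), the zinc finger factor that most growth signals induce first, was at 31.4, 21.8 and 19.9 CPM in tumour tissue and at 36.3, 44.6 and 39.7 CPM in adjacent lung. The groups did not overlap, and mouse 102 showed the smallest gap, at 1.15-fold. The means were 24.4 ± 6.17 and 40.2 ± 4.18 CPM, a log2 fold change of -0.72 ± 0.30 (95% interval -1.42 to -0.02) and an edgeR adjusted p of 0.196.

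Egr2 (ENSMUSG00000037868, chromosome 10, 67535475 to 67542188), a factor of myelinating and lymphoid cells among others, was at 6.45, 4.04 and 7.03 CPM in tumour tissue and at 5.02, 13.3 and 21.1 CPM in adjacent lung. The groups overlapped, since adjacent 102 lay among the tumours. The log2 fold change was -1.17 ± 0.56 (edgeR adjusted p = 0.260), and the tumour was the lower in 2 of 3 mice.

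Egr3 (ENSMUSG00000033730, chromosome 14, 70077203 to 70082614), known as a target of Egr1 and as a regulator in T cells, was the lowest of the EGR genes among the 10. It read 1.25, 0.48 and 1.08 CPM in tumour tissue and 2.84, 2.94 and 7.17 CPM in adjacent lung, and the groups did not overlap. The log2 fold change was -2.20 ± 0.65 (95% interval -3.71 to -0.70), the largest of the 10 in size, with an edgeR adjusted p of 0.0753, 0.0532 with the mouse as a block and 0.00448 in DESeq2. T cell markers summed to 34.0 to 118 CPM in adjacent lung and 5.19 to 28.5 CPM in tumour tissue, and their part in the Egr2 and Egr3 values was not tested.

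Atf3 (ENSMUSG00000026628, chromosome 1, 191170296 to 191218039), a stress-induced partner of JUN proteins, was at 12.1, 12.1 and 17.3 CPM in tumour tissue and at 11, 31.6 and 26.7 CPM in adjacent lung. The groups overlapped (log2 fold change -0.74 ± 0.44, edgeR adjusted p = 0.379), with the tumour lower in mice 217 and 224 only.

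Nr4a1 (ENSMUSG00000023034, chromosome 15, 101254269 to 101274795) was at 33.2, 22.6 and 35.4 CPM in tumour tissue and at 39.0, 57.0 and 48.2 CPM in adjacent lung. Every tumour lay below every adjacent sample, with a gap of 1.17-fold in mouse 102 and 2.52-fold in mouse 217. The log2 fold change was -0.66 ± 0.31 (95% interval -1.38 to 0.06, edgeR adjusted p = 0.256).

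Ier2 (ENSMUSG00000053560, chromosome 8, 84661331 to 84662852), an early response gene whose product acts in the nucleus, was at 76.2, 207 and 124 CPM in tumour tissue and at 90.1, 148 and 93.9 CPM in adjacent lung. The groups overlapped in full, and both tissues of mouse 217 were the highest of their group (log2 fold change 0.29 ± 0.42, edgeR adjusted p = 0.760). Without tumour 217 the log2 fold change was -0.22.

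By mouse, 6 of the 10 genes (Fos, Fosb, Jun, Egr1, Egr3 and Nr4a1) were the lower in the tumour of all 3 mice, against 29.3% of all genes tested, and Junb was the 1 that was higher in all 3, against 28.2%. At an unadjusted p under 0.05, 4 of the 10 were lower (Fos, Jun, Egr1 and Egr3), against 16% of all genes. DESeq2 called 3 of them lower (Fos, Jun and Egr3), against 13.0% of the genes it tested, and none higher, against 5.75%. limma-voom called none of the 10, against 8.15% of all genes called lower. In whole tissue, fewer cells of a type and less RNA per cell cannot be told apart. Endothelial markers summed to 2858 to 4527 CPM in adjacent lung and to 477 to 623 CPM in tumour tissue. Fibroblast markers summed to 1470 to 1806 against 466 to 923 CPM, and AT2 markers to 29238 to 60659 against 85312 to 188540 CPM. Club markers summed to 18907 to 36415 against 1174 to 2459 CPM and ciliated markers to 466 to 681 against 6.65 to 23.1 CPM. Erythroid markers summed to 5065 to 20677 against 130 to 2290.5 CPM. edgeR called 6 of 7 endothelial, 0 of 6 fibroblast, 3 of 5 club, 4 of 5 ciliated and 0 of 5 erythroid markers lower, against 7.18% of all genes. It called 2 of 10 AT2 markers higher, against 2.86% of all genes. With 1 library left out, 2 to 6 of the endothelial markers were called lower. The part of all these cell types in the values of the 10 genes was not tested.

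**Figure D3:**
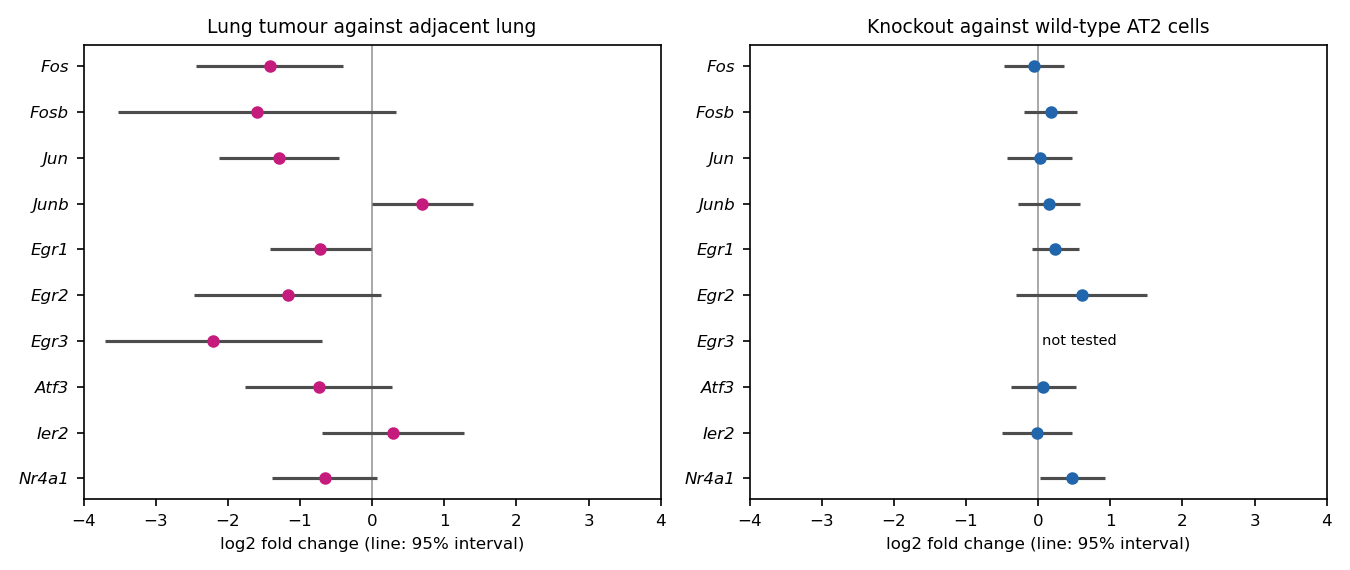
Log2 fold change of each gene with its 95% interval from the edgeR fit, for tumour over adjacent lung and for knockout over wild-type AT2 cells. In lung the intervals of Fos, Jun, Egr1 and Egr3 lie below 0 and the other 6 cross it, with the values of Junb and Ier2 above 0. In AT2 cells Egr2 (0.60, interval -0.30 to 1.51) and Nr4a1 (0.47, interval 0.02 to 0.92) have the largest values, and the interval of Nr4a1 alone leaves out 0.

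Among 36 other primary response genes, 35 were tested: 2 rose in tumours (Dusp6 and Trib1), 3 fell (Klf2, Klf4 and Dusp1) and 30 did not pass. Over all genes 2.86% were called higher and 7.18% lower. With the mouse as a block 3 rose and 10 fell, in a fit that called 5.57% of all genes higher and 9.34% lower. The median log2 fold change of the list was -0.49. The Krüppel-like factors Klf2 and Klf4, known to hold cells in quiescence, had the largest folds among those that passed. Klf2 was at 21.7, 58.7 and 34.6 CPM in tumour tissue and 370, 424 and 276 CPM in adjacent lung (log2 fold change -3.22 ± 0.45, edgeR adjusted p = 0.00992). Klf4 was at 24.8, 12.4 and 16.9 against 279, 124 and 147 CPM (-3.34 ± 0.46, edgeR adjusted p = 0.0092). Both passed with any 1 library left out. Klf2 is a known gene of endothelium, and the endothelial marker sums given above were lower in the same tumours. Their part in the Klf2 value was not tested.

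Dusp1, a phosphatase that switches off MAP kinases, fell from 201 ± 90.8 CPM in adjacent lung to 65.3 ± 9.33 CPM in tumour tissue (-1.62 ± 0.39, edgeR adjusted p = 0.0398). Dusp6, a phosphatase specific to ERK and induced by it, rose from 121 ± 13.0 to 280 ± 49.6 CPM (1.21 ± 0.29, edgeR adjusted p = 0.041). Leaving out any 1 of the 6 libraries ended both calls, with adjusted p up to 0.138 and 0.153. Library totals alone (adjusted p = 0.108) and no filter on low counts (0.0683) also ended that of Dusp6. Trib1, a pseudokinase that steers protein degradation, rose from 49.6 ± 1.53 to 153 ± 11.5 CPM (1.62 ± 0.26, edgeR adjusted p = 0.0136). Its call ended without tumour 224, without adjacent 224 or without mouse 217, with adjusted p up to 0.062.

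The relatives of the 10 genes did not pass in the edgeR fit without the mouse term. Jund, a JUN gene known to respond little to growth signals, averaged 427 ± 119 CPM in tumour tissue and 599 ± 87.3 CPM in adjacent lung (-0.49 ± 0.34, edgeR adjusted p = 0.464). Fosl1 was low in both, at 1.34 ± 0.68 and 0.241 ± 0.106 CPM (2.46 ± 0.76, edgeR adjusted p = 0.0863), and passed in DESeq2 (adjusted p = 0.00926). Fosl2 was at 109 ± 46.0 and 105 ± 23.0 CPM (0.05 ± 0.38). Nr4a2 was at 9.96 ± 5.58 and 8.65 ± 5.19 CPM (0.20 ± 0.58, edgeR adjusted p = 0.886). Nr4a3 was at 8.06, 1.18 and 1.44 CPM in tumour tissue and 32.2, 4.54 and 4.87 CPM in adjacent lung, with mouse 102 high in both. Its log2 fold change was -1.96 ± 1.04 (edgeR adjusted p = 0.312), and the fit with a mouse term gave an adjusted p of 0.0176. Without adjacent 102 the log2 fold change was -0.37, and without tumour 102 it was -3.41. Myc (0.99 ± 0.41, edgeR adjusted p = 0.185) and the mRNA decay factor Zfp36 (-0.90 ± 0.37, edgeR adjusted p = 0.183) did not pass either.

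Upstream of the genes, none of 16 SRF, ETS and CREB regulators passed in edgeR or DESeq2, and none had an unadjusted p under 0.05. Srf itself was at 45.5 ± 17.5 CPM in tumour tissue and 54.9 ± 17.5 CPM in adjacent lung (-0.27 ± 0.41). None of 15 MAP kinase genes passed, 1 of them higher at an unadjusted p under 0.05 (7.94% of all genes) and 1 called higher by DESeq2 (5.75% of all genes). With the mouse as a block 2 rose (Map2k7 and Map2k3), against 5.57% of all genes. Among 12 other bZIP genes able to pair with AP-1 proteins, Maf alone fell and 11 did not pass, against 7.18% of all genes called lower. Maf went from 43.9 ± 9.63 to 8.91 ± 2.03 CPM (-2.30 ± 0.34, edgeR adjusted p = 0.0111). DESeq2 called 2 of the 12 lower, against 13.0% of the genes it tested. The block added Batf, in a fit that called 9.34% of all genes lower.

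Among 15 genes that brake the response or degrade its transcripts, 2 rose (Nab2 and Dusp6), 2 fell (Dusp1 and Nfkbia) and 11 did not pass. In the same edgeR fit 2.86% of all genes were called higher and 7.18% lower. Nab2, a corepressor that binds EGR proteins and is induced by them, rose from 43.2 ± 9.65 to 123 ± 41.2 CPM (1.51 ± 0.35, edgeR adjusted p = 0.037). Nfkbia, the inhibitor of NF-kB, fell from 140 ± 28.8 to 57.1 ± 3.13 CPM (-1.30 ± 0.29, edgeR adjusted p = 0.0323). Both calls ended with any 1 library left out, with adjusted p up to 0.131 and 0.122, and that of Nab2 also with no filter on low counts (0.0635). With the mouse as a block 3 rose and 4 fell, against 5.57% and 9.34% of all genes.

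Of 18 genes known as later targets of AP-1 or EGR factors, 1 rose (Areg), 1 fell (Plaur) and 16 did not pass, against 2.86% of all genes called higher and 7.18% called lower. With the block 3 rose and 2 fell, against 5.57% and 9.34%. Areg, a ligand of the EGF receptor, averaged 59.4 ± 38.7 CPM in tumour tissue and 14.8 ± 2.34 CPM in adjacent lung (2.0 ± 0.48, edgeR adjusted p = 0.0398). Its call held without tumour 217 and ended without any 1 of the other 5 libraries, with library totals alone (adjusted p = 0.0606) and with no filter on low counts (0.0528). Without tumour 102 its log2 fold change was 1.3. Plaur, the urokinase receptor, was at 33.3 ± 4.96 and 88.1 ± 32.4 CPM (-1.40 ± 0.36, edgeR adjusted p = 0.04996). Its call held without adjacent 102 and ended without any 1 of the other 5 libraries, and also with RLE size factors (0.0587), with no filter on low counts (0.0669) and with limma-voom (0.0522).

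The second comparison asked whether AT2 cells of mice with the T-cell knockout, before tumours appear, differ from wild-type AT2 cells in these genes. By edgeR and by DESeq2, 0 of the 9 genes tested passed, and 1 of them (Nr4a1) had an unadjusted p under 0.05. Egr3 was not tested, at 14, 10 and 5 counts in the wild type and 9, 5 and 9 counts in the knockout. edgeR called 0 of 14053 genes in this table (0.0%), with 347 at an unadjusted p under 0.05 (2.47%), and DESeq2 called 1 (0.00712%), which was none of these 9. Values below are TMM-scaled CPM for wild-type 176, 177 and 190 and for knockout 175, 179 and 191.

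Fos was at 297, 370 and 275 CPM in wild-type cells and at 331, 346 and 228 CPM in knockout cells, a log2 fold change of -0.06 ± 0.19 (95% interval -0.47 to 0.35, edgeR adjusted p = 0.989). Fosb was at 173, 122 and 127 against 165, 167 and 144 CPM (0.17 ± 0.17, interval -0.19 to 0.53). Jun was at 908, 574 and 583 against 815, 687 and 596 CPM (0.02 ± 0.21, interval -0.43 to 0.47). The wild-type and knockout libraries overlapped for all 3 genes, and wild-type 176 and knockout 175 were the highest of their group for Jun.

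Junb was at 368, 241 and 256 CPM in wild-type cells and at 370, 331 and 259 CPM in knockout cells (0.15 ± 0.20, interval -0.28 to 0.58). Egr1 was at 183, 219 and 187 against 244, 205 and 245 CPM (0.24 ± 0.15, interval -0.09 to 0.56). Egr2 was low, at 2.94, 0.97 and 2.47 against 3.86, 2.36 and 3.50 CPM (0.60 ± 0.41, interval -0.30 to 1.51). Again the libraries of the groups overlapped for each of these genes.

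Atf3 was at 23.6, 25.7 and 15.7 CPM in wild-type cells and at 22.5, 26.2 and 19.5 CPM in knockout cells (0.07 ± 0.20, interval -0.37 to 0.52). Ier2 was at 252, 173 and 129 against 205, 182 and 161 CPM (-0.02 ± 0.22, interval -0.50 to 0.47). The groups overlapped for both genes. The width of these intervals means that the lack of a call does not show equal levels.

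Nr4a1 alone of the 9 had groups that did not overlap. It read 167, 168 and 116 CPM in wild-type cells and 269, 182 and 174 CPM in knockout cells, so that every knockout library lay above every wild-type library. The means were 150 ± 29.5 and 209 ± 52.8 CPM, a log2 fold change of 0.47 ± 0.20 (95% interval 0.02 to 0.92), an unadjusted p of 0.0409 and an edgeR adjusted p of 0.984. It was 1 of the 9 genes tested to lie higher without overlap, against 4.19% of all genes tested. Without knockout 175 the log2 fold change was 0.24, and without wild-type 176 and 177 it was 0.84. Of the 7 pathway lists, none had a gene that passed in edgeR or DESeq2 in this comparison. At an unadjusted p under 0.05, 2 of 34 other primary response genes, 1 of 14 late targets and 2 of 12 heat shock genes were higher in the knockout, against 1.32% of all genes tested. Among the heat shock genes, Hspa1a and Hspa1b averaged 71.5 and 79.5 plain CPM in knockout cells, against 30.8 and 36.3 CPM in wild-type cells. These 2 are near-identical copies whose reads could be split between them, so they may be 1 signal.

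The last comparison set the sorted cells beside whole lung. Sorting, age, tissue and count table all changed together here, so the levels stand side by side without a test. Values are plain CPM, scaled by library totals alone. The 10 genes together took 1707 to 2462 CPM in the AT2 libraries, 794 to 999 CPM in adjacent lung and 604 to 707 CPM in tumour tissue. In knockout AT2 cells 4 of the 10 genes were at least 2-fold above adjacent lung, against 12.3% of the 16541 genes at 1 CPM or more in either group, and 2 were at least 2-fold below, against 37.9%. The median log2 ratio was 0.76 for the 10 genes and -0.48 over all of these genes.

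Fosb stood out most: it averaged 162 ± 10.5 CPM in knockout and 138 ± 32 CPM in wild-type AT2 cells, against 5.96 ± 2.37 CPM in adjacent lung and 1.78 ± 2.06 CPM in tumour tissue, which makes 27.1-fold between knockout AT2 cells and adjacent lung. Egr1 averaged 236 ± 26.4 and 191 ± 9.33 CPM in the AT2 groups against 43.4 ± 3.55 and 22.7 ± 6.66 CPM in adjacent lung and tumour (5.43-fold over adjacent lung). Fos averaged 306 ± 60.5 and 306 ± 32.3 CPM against 59.1 ± 18.1 and 19.4 ± 9.68 CPM (5.19-fold). Nr4a1 averaged 212 ± 52.8 and 147 ± 26.0 CPM against 51.9 ± 8.37 and 28.7 ± 9.29 CPM (4.09-fold). For these 4 genes, and for Jun, all 6 AT2 libraries lay above all 6 lung libraries. The share of all genes that did so was not counted, so this separation has no background to be read against.

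Jun averaged 712 ± 106 CPM in knockout AT2 cells and 389 ± 123 CPM in adjacent lung (1.83-fold). Ier2 (186 ± 20.4 against 119 ± 27.6 CPM), Junb (326 ± 53.7 against 212 ± 36.0 CPM) and Atf3 (23.2 ± 3.02 against 24.9 ± 11.2 CPM) differed by less than 2-fold. Their libraries overlapped between AT2 cells and lung.

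Egr2 and Egr3 lay on the other side. Egr2 averaged 3.31 ± 0.82 CPM in knockout AT2 cells, 14.4 ± 9.51 CPM in adjacent lung (4.36-fold higher there) and 5.53 ± 2.02 CPM in tumour tissue. Egr3 averaged 0.458 ± 0.159, 4.78 ± 3.02 (10.4-fold higher) and 0.894 ± 0.444 CPM. With tumour in place of adjacent lung neither was 2-fold lower in the AT2 cells.

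Within the EGR and FOS families the ratios between members differed as well. Per kilobase, Egr2 over Egr1 was 0.183 to 0.703 in the lung libraries and 0.00589 to 0.0212 in the AT2 libraries. Egr3 over Egr1 was 0.0223 to 0.184 in lung and 0.00136 to 0.00459 in AT2 cells. Fosb over Fos was 0.00632 to 0.0926 in lung and 0.124 to 0.238 in AT2 cells. The AT2 and lung ranges did not overlap for any of these 3 ratios, which were chosen after the values were seen.

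Other genes of the response were set beside the 10 in the same way. Of 35 other primary response genes at 1 CPM or more in either group, 4 were at least 2-fold above adjacent lung in knockout AT2 cells (Fosl1, Sik1, Arc and Ptgs2) and 16 at least 2-fold below, with a median log2 ratio of -0.97. Over all genes 12.3% were 2-fold above and 37.9% below. Ptgs2, the inducible cyclooxygenase, averaged 81.9 ± 20.1 CPM in knockout AT2 cells and 22.0 ± 6.53 CPM in adjacent lung. Dusp1 (291 ± 52.3 against 216 ± 97.0 CPM) and Zfp36 (282 ± 51.6 against 177 ± 51.7 CPM) were closer. Klf2 averaged 5.75 CPM against 383 CPM in adjacent lung, Klf4 24.9 against 199 CPM, and Jund 149 ± 27.1 against 648 ± 99.4 CPM.

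Of 15 MAP kinase genes 4 were at least 2-fold above (Mapk9, Mapk14, Map2k3 and Rps6ka3) and 2 below. Of 15 brakes 2 were above (Dusp4, 35.3 against 7.38 CPM, and Cnot1, 246 against 98.3 CPM) and 2 below. None of 12 AP-1 partners, 18 late targets or 16 SRF, ETS and CREB regulators was 2-fold above, and 9, 12 and 3 were 2-fold below, against the 12.3% and 37.9% of all genes. Srf differed little, at 61.7 ± 6.70 against 60.1 ± 21.5 CPM. None of 12 heat shock genes that dissociated cells are known to induce was 2-fold above and 3 were 2-fold below, against the same 12.3% and 37.9%. Their median log2 ratio was -0.43, against -0.48 over all genes. Hspa1a was at 71.5 ± 12.8 CPM in knockout AT2 cells, 30.8 ± 17.1 CPM in wild-type AT2 cells and 53.5 ± 30.6 CPM in adjacent lung. Hspa1a has a near-identical copy, Hspa1b, and reads of the 2 could be split between them.

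**Figure D4:**
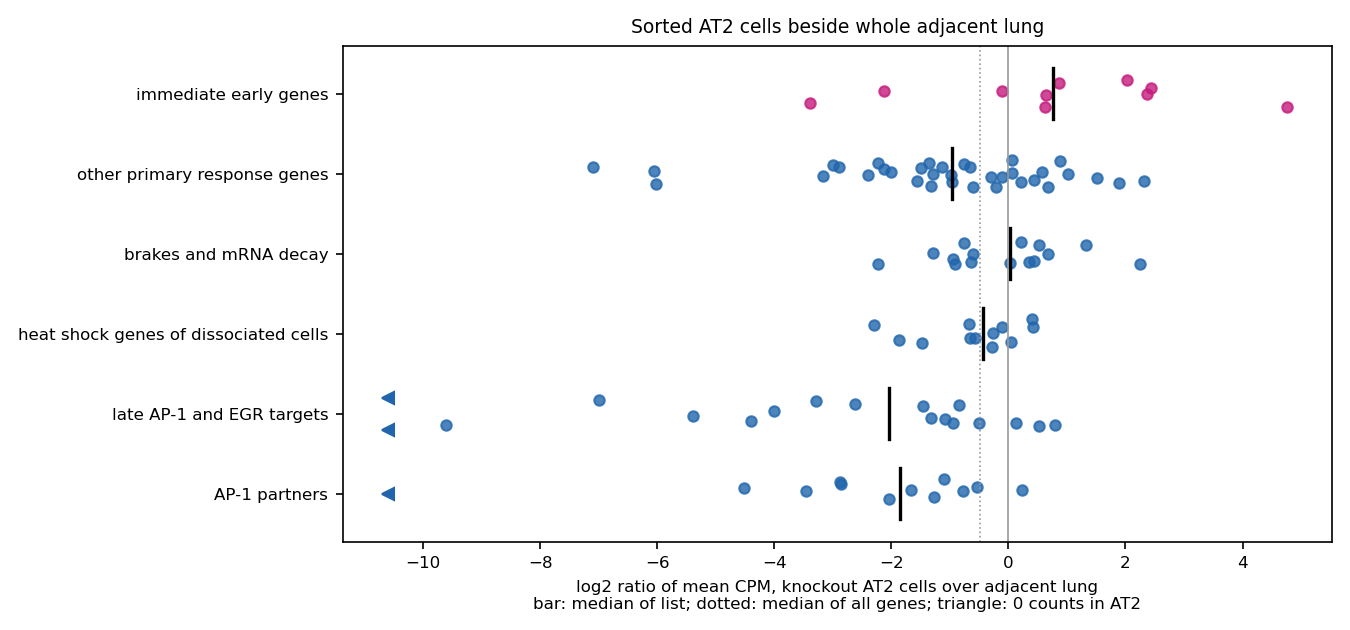
Log2 ratio of mean CPM in knockout AT2 cells over adjacent lung for the 10 genes and for 5 of the other lists; each point is 1 gene, bars are list medians, the dotted line is the median of all genes and triangles are genes with 0 counts in knockout AT2 cells. The bar of the immediate early genes lies at 0.76, with Fosb furthest right and Egr2 and Egr3 furthest left among them, and the bars of the AP-1 partners and late targets lie at -1.85 and -2.04.

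Across the 6 libraries of a table the 10 genes moved together in part. Pearson's r of log2(CPM + 1) was positive in 31 of their 45 pairs in lung (median 0.63) and in 41 of 45 in AT2 cells (median 0.41). In lung the closest pairs were Egr2 with Atf3 (0.93), Fos with Egr1 (0.92) and Egr1 with Nr4a1 (0.88), and Jun with Junb was the most opposed (-0.77). In AT2 cells Jun and Junb were the closest pair (0.96), followed by Fosb with Junb (0.95) and Jun with Ier2 (0.89). These coefficients rest on 6 libraries that share tissue groups, depth and, in lung, mice, and are a description. Pairs of other genes were not counted, so the share of positive pairs has no background here.

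The genes most like the mean of the 10, among genes of at least 10 CPM and leaving out predicted genes, were Dnase1l1, Arap1, Ifi207, Mob3a and Bcap29 in lung, with r of 0.988 to 0.995 over 6 libraries. In lung 394 of 10407 genes had an r above 0.9, so a high r was not limited to the genes named. In AT2 cells they were Mapk7 (0.98), Pnkd, Pde1b, Ccdc189 and Irx3 (0.96 each), and 32 of 8451 genes had an r above 0.9.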

How the data were processed

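Poly-A RNA of 6 lung and 6 sorted AT2 libraries was measured with a kit that does not mark strand, per the labels' protocols. The authors deposited whole-number counts per gene, not normalised, in 1 table for lung and 1 for AT2 cells. The build was GRCm38, and the submitters' processing notes list HISAT2, Trimmomatic 0.39, StringTie 1.3.3b, FastQC and DESeq2 1.28.1. How alignments became counts, with which strand setting and annotation, is not given in the sources used here. Symbols, coordinates and merged exon lengths came from GENCODE M21, and promoter sequences from RefSeq.

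From the counts, each table was fitted as a whole in R 4.3.3 with edgeR 4.0.16 (filterByExpr with a minimum count of 10, TMM, quasi-likelihood fit and test, group as the only term), with Benjamini-Hochberg adjustment over all genes tested and a threshold of 0.05. Standard errors are the log2 fold change over the root of F. Alternatives were DESeq2 1.42.0, limma-voom (limma 3.58.1), RLE size factors, library totals, no filter, left-out libraries and, for lung, the mouse as a block. Tumour and adjacent tissue of a number came from 1 animal, and their deviations from group means correlated (r of 0.38, 0.57 and 0.48 across genes). The scripts were tested on simulated data. No pair of libraries in a group agreed within sampling noise.

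The 10 genes, the 7 pathway lists and the marker lists were chosen with earlier results of these data known. All 10 genes are named. Of each list the genes named are 10 chosen relatives and, among genes that passed with at least 5 CPM, up to 3 higher and 3 lower of largest fold. Hspa1a, Hspa1b, Batf, Map2k7 and the genes at least 2-fold higher in sorted cells were also named, after their values were seen. Prdx2 and Junos were named because they overlap members.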

Additional observations from a re-analysis of the deposited data

How the results depend on the processing

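In lung, 0 of the 10 genes were called lower by edgeR without the mouse term, and 3 were with DESeq2, 1 with library totals alone and 1 with the mouse as a replicate block. In the same order, these fits called 7.18%, 13.0%, 9.2% and 9.34% of all genes they tested lower. With any 1 library left out, 0 of the 10 were called lower. Over all lung genes tested, 2007 were called, 3729 with DESeq2, 847 without mouse 217 and 598 to 1854 with 1 library left out. Library totals alone moved the median log2 fold change of all genes by -0.22 and the share of calls that were higher from 28.5% to 17.6%. Of the 10 genes' values under the alternatives, 124 of 130 kept direction and side of the threshold, 5 newly passed and 1 changed sign. That was Ier2, at -0.22 to 0.56 with 1 library left out. Fosl2 changed sign at -0.16 with library totals, -0.0064 with no filter, -0.0063 with limma-voom and -0.0068 with the mouse as a block, and ranged from -0.37 to 0.23 with 1 library left out. Nr4a2 was -0.024 with library totals and -0.37 to 0.82 with 1 library left out. The cause was not tested.

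In AT2 cells 0 genes of the table were called, against 1 with DESeq2, 17 with no filter, 6 without wild-type 176 and 177 together and 0 to 1 with 1 library left out. Without both, the lone wild-type library was assumed to vary like the knockout group. Of the genes' values, 94 of 108 kept direction and 14 changed sign. Fos was 0.0041 with library totals, 0.13 without 176 and 177, and -0.18 to 0.11 with 1 library left out. Ier2 was 0.041 with library totals, 0.032 with limma-voom, 0.50 without 176 and 177, and -0.22 to 0.28 with 1 left out. With 1 left out Jun ranged from -0.10 to 0.27 and Atf3 from -0.11 to 0.21. No paired analysis was possible because wild-type and knockout AT2 cells share no mouse numbers. Beside whole lung, the 2 genes at least 2-fold lower in sorted cells became 0 with tumour in place of adjacent tissue. On the higher side, Jun went from 1.83-fold over adjacent lung to 5.18-fold over tumour in knockout AT2 cells. Fosb, Fos, Egr1 and Nr4a1 were 91.0-, 15.8-, 10.4- and 7.40-fold over tumour. Junb and Ier2 went the other way, from 1.54- and 1.57-fold to 1.10- and 1.53-fold. No share of all genes is given for tumour as the reference. Egr3 in AT2 cells, at 5 to 14 counts, is the value that depth limits most.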
